A study of Drosophila melanogaster with 21 samples.

Results

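The mitochondrial ribosomal protein genes of Drosophila, whose FlyBase symbols start with mRpL (large subunit) or mRpS (small subunit), were followed in S2R+ cells depleted of components of the N6-methyladenosine (m6A) RNA modification machinery. By this naming rule 71 of the 17558 gene IDs in the count tables were members, 47 of the large and 24 of the small subunit. The symbols mRpS5 and mRpS34 also fit the rule, but their IDs were not analysed here. Enough counts for testing were present for 70 members, and 8360 genes in all were tested. The remaining member, mRpL53, was listed at 0 counts in all 21 libraries, and all 829 of its exon bases also lie in exons of CG33155 on the same strand or AGO1 on the opposite strand.

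S2R+ is an embryo-derived, adherent Drosophila line with features of blood cells. Poly(A) RNA was sequenced from 7 groups of 3 libraries each. The groups were cells depleted of Ime4 (FlyBase Mettl3), of CG7818 (Mettl14), of Ime4 and CG7818 together, of Fl2d (fl(2)d), of CG6422 (Ythdf) and of YT521 (Ythdc1, also called YT521-B), and control cells. The labels name no further allele or agent and do not give the depletion reagent or what the control cells received. Nor do the labels say whether the 3 libraries of a group came from separate cultures, so p-values measure the spread between libraries, which may be technical. Each value is of RNA from many cells, so fewer cells expressing a gene and less of its RNA per cell cannot be told apart.

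Mettl3 and Mettl14 form the enzyme core that writes m6A on mRNA, and fl(2)d is an adaptor of the same writer complex. Ythdc1 is the nuclear and Ythdf the cytoplasmic protein that reads m6A through a YTH domain. The mitochondrial ribosome translates the few messages of the mitochondrial genome, all for membrane subunits of the respiratory chain complexes and the ATP synthase. Its RNAs are encoded in mitochondrial DNA, while every protein in it is encoded in the nucleus, made in the cytosol and imported. Some of these proteins descend from proteins of the bacterial ribosome and keep its numbering, and others were added in the mitochondrial lineage. The names do not always follow the present structure, since the human counterparts of mRpS18A and mRpS30 sit in the large subunit.

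The libraries held 20214568 to 28296393 counts assigned to genes (median 22126193), and a tested member was covered by 141 to 4059 counts per library. Each targeted transcript was lower in its own depletion. Mettl3 averaged 5.75 ± 0.72 counts-per-million (CPM) in Ime4 depletion and 5.33 ± 2.6 CPM in the double depletion, against 61.6 ± 1.5 CPM in control cells (SD, n = 3 each). Mettl14 averaged 5.79 ± 1.0 CPM in CG7818 depletion and 6.17 ± 1.6 CPM in the double depletion, against 64.5 ± 1.4 CPM in control cells. The transcript of fl(2)d averaged 21.7 ± 3.1 CPM in Fl2d depletion and 125 ± 1.6 CPM in control cells. Ythdf averaged 25.3 ± 7.0 CPM in CG6422 depletion and 98.1 ± 7.0 CPM in control cells, and Ythdc1 averaged 86.7 ± 15 CPM in YT521 depletion and 391 ± 15 CPM in control cells. Some targets also changed in other depletions (edgeR adjusted p under 0.05). The transcript of fl(2)d was higher in Ime4 (log2 fold change 0.52), CG7818 (0.50), double (0.49) and YT521 depletion (0.27). In Fl2d depletion Ythdf was lower (-0.32) and Ythdc1 higher (0.38). The changes of fl(2)d in YT521 and of Ythdf in Fl2d depletion did not keep that threshold without some single libraries. Of 16 blood cell markers 14 reached 1 CPM in control cells, with a summed level of 943 to 1190 CPM over the depleted libraries and 1076 to 1171 CPM over the control libraries, while the 5 matched muscle markers summed to at most 1.90 CPM and the 4 fat body markers to at most 0.717 CPM in any library. The 2 matched germline markers summed to 199 to 235 CPM over the depleted and 220 to 229 CPM over the control libraries, the 4 neuron markers to 15.5 to 23.6 CPM and 17.9 to 20.5 CPM, and the 4 markers of crystal cells and lamellocytes to 64.1 to 87.95 CPM and 79.3 to 86.2 CPM. The large RNA of the mitochondrial ribosome, mt:lrRNA, took 1.94% of counts in Fl2d replicate 1. It took 2.89% in replicate 2 of YT521 depletion and 5.61% to 8.62% elsewhere. Counts of called genes in Fl2d depletion against control are therefore given with and without that library.

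In control cells the mitochondrial ribosomal protein genes formed a compact group of moderately to highly expressed, short genes. Measured per length as transcripts-per-million (TPM), the 70 tested members had a median of 68.8 TPM, ranging over 21.8 to 201 TPM, against a median of 25.5 TPM for the 7730 protein-coding genes tested. The median over the large subunit was 69.4 TPM and over the small subunit 66.0 TPM. Members whose number falls in the bacterial range (up to 36 in the large and up to 21 in the small subunit, 41 genes) had a median of 68.4 TPM, and those numbered above it (29 genes) one of 69.7 TPM. In counts, which grow with length, the members had a median of 33.3 CPM and the protein-coding genes one of 36.2 CPM. The members' merged exons had a median length of 783 bases against 2108 bases for protein-coding genes tested, and their longest coding sequence a median of 579 against 1386 bases. A single annotated transcript was present for 75.7% of the members and 39.3% of the protein-coding genes tested. The 71 members lay on 5 chromosome arms, with 21 on 3R, 15 on 3L, 12 each on 2L and 2R and 11 on X, and 3R held 29.6% of the members and 24.6% of protein-coding genes.

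The most abundant member per length was mRpL14, the counterpart of a bacterial protein at the interface of the subunits, at 201 ± 11.2 TPM (SD, n = 3). It was followed by mRpL45, which in mammals lies near the exit of the nascent chain tunnel and contacts the inner membrane, at 168 ± 13.8 TPM, and by mRpL52, a protein added in mitochondria, at 166 ± 9.36 TPM. Next came mRpL10 of the factor-binding stalk at 155 ± 8.83 TPM and mRpL23, whose bacterial counterpart sits at the tunnel exit, at 144 ± 5.38 TPM. Of these 5, mRpL45 and mRpL52 differed by less than their SDs, and the other neighbours in this order by more than the larger of their SDs. The order of mRpL10 and mRpL23 depends on the length used. With the longest transcript as length, mRpL23 stood at 157 TPM and mRpL10 at 150 TPM. At the low end were mRpL37 at 28.2 ± 2.6, mRpL48 at 23.6 ± 2.7, mRpL21 at 22.4 ± 2.1, mRpS6 at 22.0 ± 0.70 and mRpL13 at 21.8 ± 3.6 TPM, and the last 4 could not be ordered beyond their spread. In mRpL13, 35.2% of exon bases overlap CG10602 on the same strand, and in mRpL48 20.8% overlap frtz and mdg3{}290 on the opposite strand. Reads there may have been set aside as ambiguous, while TPM divides by the full exon length. The levels of mRpL13 and mRpL48 may therefore be too low. The coefficient of variation over the control libraries had a median of 3.96% for members and 5.07% for protein-coding genes tested. These sets were not matched for level. The lowest member averaged 8.73 CPM in control cells and the lowest protein-coding gene 0.102 CPM.

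**Figure D1:**
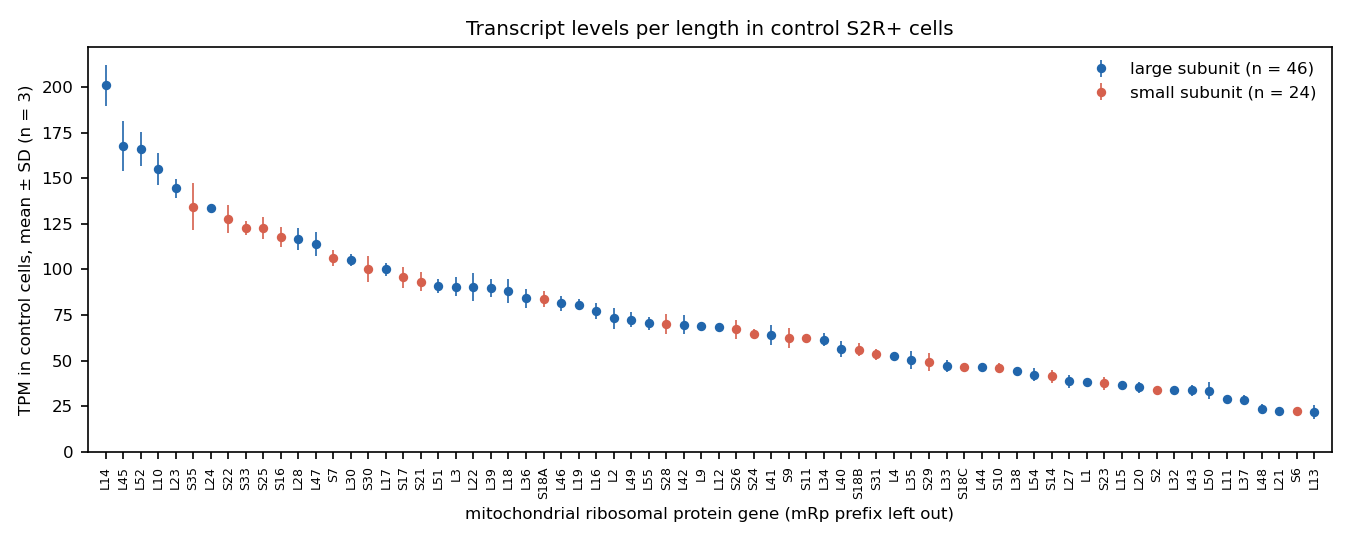
Level in transcripts-per-million in control S2R+ cells (vertical axis, mean with SD over 3 libraries) for the 70 tested genes in order of their level (horizontal axis), blue for the large and red for the small subunit. The large subunit spans 21.8 to 201 TPM and the small subunit 22.0 to 134 TPM.

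Depletion of Ime4 or of CG7818, the enzyme core, was followed by no called change in any mitochondrial ribosomal protein gene. A gene was called where edgeR's quasi-likelihood test gave a p that stayed under 0.05 after Benjamini-Hochberg adjustment over the whole table. In Ime4 depletion 0 of 70 members were called, against 3.72% of all genes tested (1.77% higher and 1.95% lower), with 4 members at an unadjusted p under 0.05 and 0 called by DESeq2. In CG7818 depletion 0 of 70 were called, against 2.34% of all genes (1.11% higher and 1.23% lower), with 3 members at an unadjusted p under 0.05 and 0 called by DESeq2. The members' log2 fold changes spanned -0.13 to 0.15 in Ime4 depletion, with a median of 0.02, and -0.12 to 0.18 in CG7818 depletion, with a median of 0.01. The standard error of a member's log2 fold change had a median of 0.07 in each. In Ime4 depletion 43 of 70 members lay above 0, against 50.7% of all genes, and in CG7818 depletion 42 of 70, against 51.1%. The 3 depleted libraries lay clear of the 3 control libraries in 13 members in Ime4 depletion, against 27.5% of all genes, and in 8 members in CG7818 depletion, against 22.8%.

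In cells depleted of both Ime4 and CG7818, 2 of 70 members rose and 0 fell, against 6.29% of all genes called higher and 5.13% called lower (11.4% either way). Both belong to the large subunit and have bacterial counterparts. The gene mRpL23 (FBgn0035335, 3L:2372844-2373704, minus strand) had 79.2, 75.2 and 71.7 CPM in the double depletion, against 66.3, 61.2 and 63.5 CPM in control cells. The groups did not overlap, and the log2 fold change was 0.24 (SE 0.062, edgeR adjusted p = 0.0127), but the call was lost without replicate 1 of the double depletion or replicate 2 of the control (adjusted p up to 0.0898). The gene mRpL30 (FBgn0029718, X:4647871-4648646, plus strand) had 50.9, 55.3 and 53.9 CPM in the double depletion, against 44.7, 45.7 and 48.0 CPM in control cells. Its groups did not overlap either, with a log2 fold change of 0.21 (SE 0.060, edgeR adjusted p = 0.0254), and 4 of the 6 libraries were each needed for the call (adjusted p up to 0.115). Over all 70 members the median log2 fold change was 0.02, 46 lay above 0, against 48.7% of all genes, and 11 had libraries clear of the control, against 34.8% of all genes.

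Set against the single depletions, no member was called in the double depletion without the replicate block. Against Ime4 depletion 0 of 70 were called (0.156% of all genes, 1 member at an unadjusted p under 0.05, 0 by DESeq2), and against CG7818 depletion 0 of 70 (2.17% of all genes, 5 members at an unadjusted p under 0.05, 0 by DESeq2). With the replicate number as a block, 1 member, mRpL23, was called in the double depletion against CG7818 depletion (log2 fold change 0.17, edgeR adjusted p = 0.0432, against 0.153 without the block). The interaction, which asks whether the double depletion departs from the sum of the single ones on the log2 scale, was called in 0 of 70 members, with 1 at an unadjusted p under 0.05, and in 9 of all genes tested (0.108%).

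**Figure D2:**
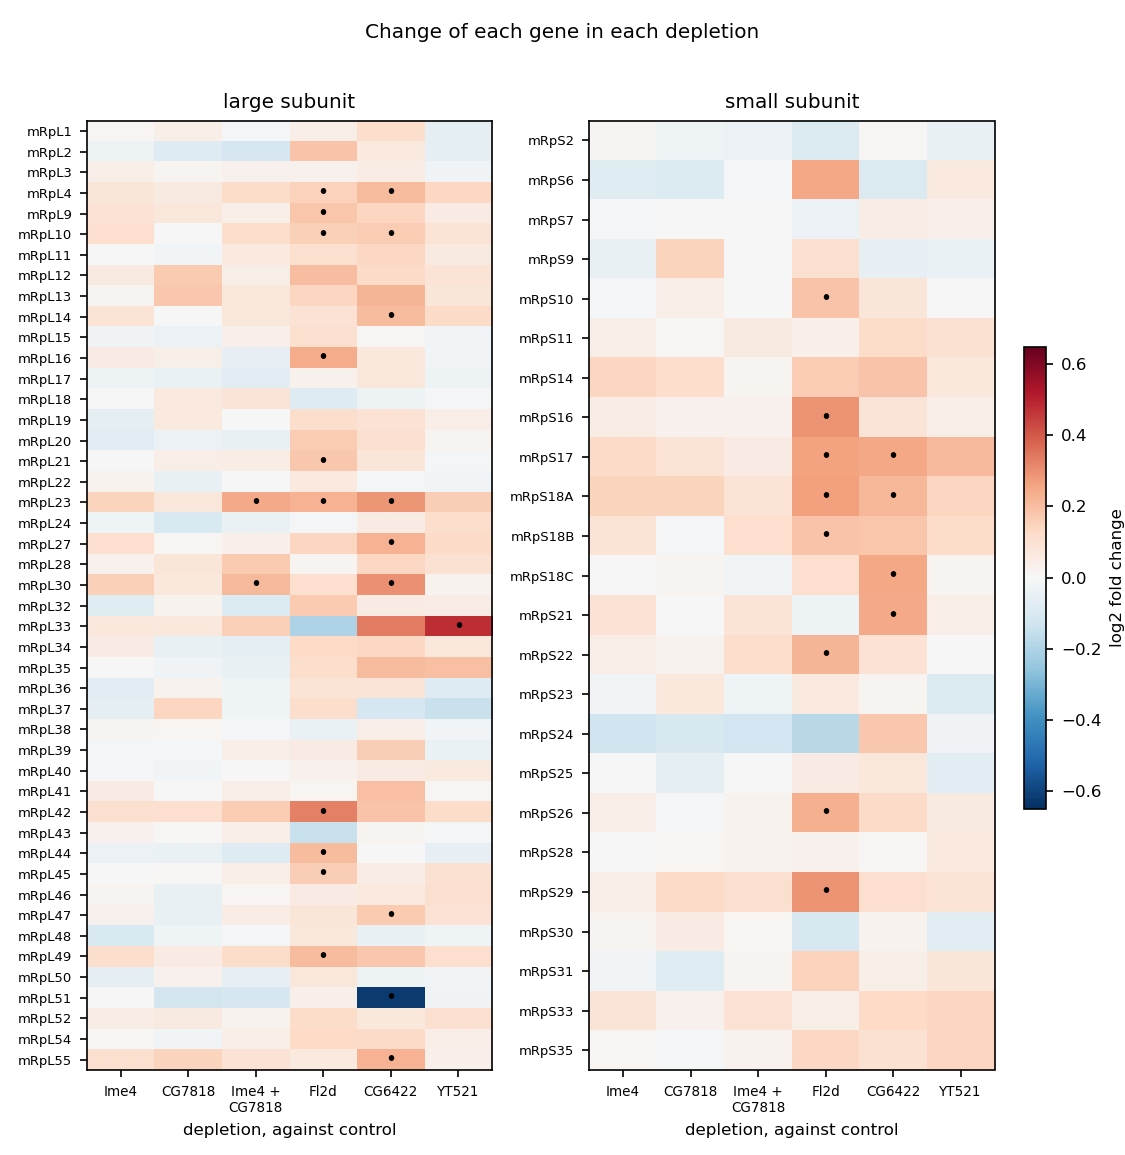
Log2 fold change against control (colour, red higher and blue lower) of the 70 tested genes (rows, by subunit) in each of 6 depletions (columns), with a dot where the edgeR adjusted p lay under 0.05. Dots are most frequent in the Fl2d column (18) and the CG6422 column (13), and the deepest blue cell is mRpL51 in CG6422 depletion at -0.62.

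After depletion of Fl2d, 18 of 70 members rose and 0 fell, while 21.4% of all genes tested were called higher and 19.8% lower (41.3% either way). The share of members called higher, 25.7%, was near that of all genes. The members that rose were 10 of the 46 tested members of the large and 8 of the 24 of the small subunit. The median log2 fold change of the members was 0.11, against 0.015 over all genes tested, and 60 of 70 lay above 0, against 52.3% of all genes. Libraries clear of the control were found for 24 members, against 45.8% of all genes.

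The members called in Fl2d depletion with the smallest p were mostly of the small subunit. The gene mRpS16 (FBgn0033907, arm 2R), the counterpart of bacterial S16, had 55.5, 47.1 and 46.4 CPM in Fl2d depletion, against 39.9, 41.2 and 40.7 CPM in control cells, a log2 fold change of 0.29 (SE 0.063, edgeR adjusted p = 9.68e-04). All of the Fl2d libraries lay above all of the control libraries, and replicate 1 was the highest. The gene mRpS29 (FBgn0034727, arm 2R), whose human counterpart DAP3 is a GTP-binding protein of the small subunit, had 61.4, 52.1 and 50.5 CPM against 42.3, 47.8 and 43.5 CPM in control cells (log2 fold change 0.29, SE 0.068, edgeR adjusted p = 0.00174). The gene mRpS18A (FBgn0051450, 3R:8561917-8562593, minus strand), 1 of 3 paralogues related to bacterial S18, had 36.3, 39.5 and 35.2 CPM against 30.6, 31.2 and 30.3 CPM in control cells (log2 fold change 0.27, SE 0.063, edgeR adjusted p = 0.00187). Here replicate 2, not replicate 1, was the highest of the Fl2d libraries, and the groups did not overlap. The gene mRpS22 (FBgn0039555, 3R:27916908-27918248, plus strand), a small-subunit protein without a bacterial counterpart, had 129, 125 and 124 CPM against 103, 111 and 110 CPM in control cells (log2 fold change 0.22, SE 0.057, edgeR adjusted p = 0.00341). These 4 calls held under every alternative tried, including without Fl2d replicate 1. On the opposite strand 67 exon bases of mRpS22 overlap Boh1, which was also called higher (14.4 CPM in Fl2d depletion and 11.5 CPM in control cells, edgeR adjusted p = 0.00418), and 65 exon bases of mRpS29 overlap qkr58E-2, which was called lower (99.4 CPM and 109 CPM in control cells, edgeR adjusted p = 0.0284).

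For the other named members the call was less stable. The large-subunit gene mRpL42 (FBgn0033480, arm 2R) had 37.6, 31.4 and 29.0 CPM in Fl2d depletion, against 24.1, 25.6 and 28.6 CPM in control cells (log2 fold change 0.33, SE 0.076, edgeR adjusted p = 0.00185), and lost its call only where the fit held these 2 groups alone (adjusted p = 0.0530). Without Fl2d replicate 1 its log2 fold change was 0.21. The small-subunit gene mRpS26 (FBgn0036774, 3L:18106579-18107499, plus strand) had 44.7, 38.3 and 40.1 CPM against 32.9, 36.6 and 35.3 CPM in control cells (log2 fold change 0.23, SE 0.060, edgeR adjusted p = 0.00395), and lost it also without the pair of libraries low in mt:lrRNA. The gene mRpL23 had 81.7, 71.8 and 69.95 CPM in Fl2d depletion (log2 fold change 0.23, SE 0.063, edgeR adjusted p = 0.00632), all above the control libraries, and lost the call without replicate 1. The other members that rose were mRpL4, mRpL9, mRpL10, mRpL16, mRpL21, mRpL44, mRpL45, mRpL49, mRpS10, mRpS17 and mRpS18B, by 0.15 to 0.26 on the log2 scale, and each of these 11 calls was lost without Fl2d replicate 1, with log2 fold changes of 0.07 to 0.13.

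That library carried much of the group's shift. The median log2 ratio of the 70 members to their control means was 0.24 in Fl2d replicate 1, 0.04 in replicate 2 and 0.04 in replicate 3, against -0.04, 0.02 and 0.01 in the control libraries. In replicate 1, 58 of 70 members lay above all control libraries and 7 below all of them. In replicate 2 these counts were 30 and 17, and in replicate 3 they were 34 and 18. The summed level of the members was 3341, 2946 and 2952 CPM in Fl2d depletion, against 2787, 2920 and 2892 CPM in control cells, so that the groups did not overlap. Without replicate 1, 8.57% of the members and 17.2% of all genes were called higher, and 1.43% and 15.9% lower. The count of called members was then 7, of which 6 rose (mRpL42, mRpS16, mRpS18A, mRpS22, mRpS26 and mRpS29) and mRpS24 fell, and the median log2 fold change was 0.03. Without control replicate 1 the count was 10. The low mt:lrRNA share of that library moved with the members' high level, and its part in the result was not tested. The other library low in mt:lrRNA, YT521 replicate 2, had a member median of 0.06, against 0.05 and 0.01 in the other YT521 libraries.

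**Figure D3:**
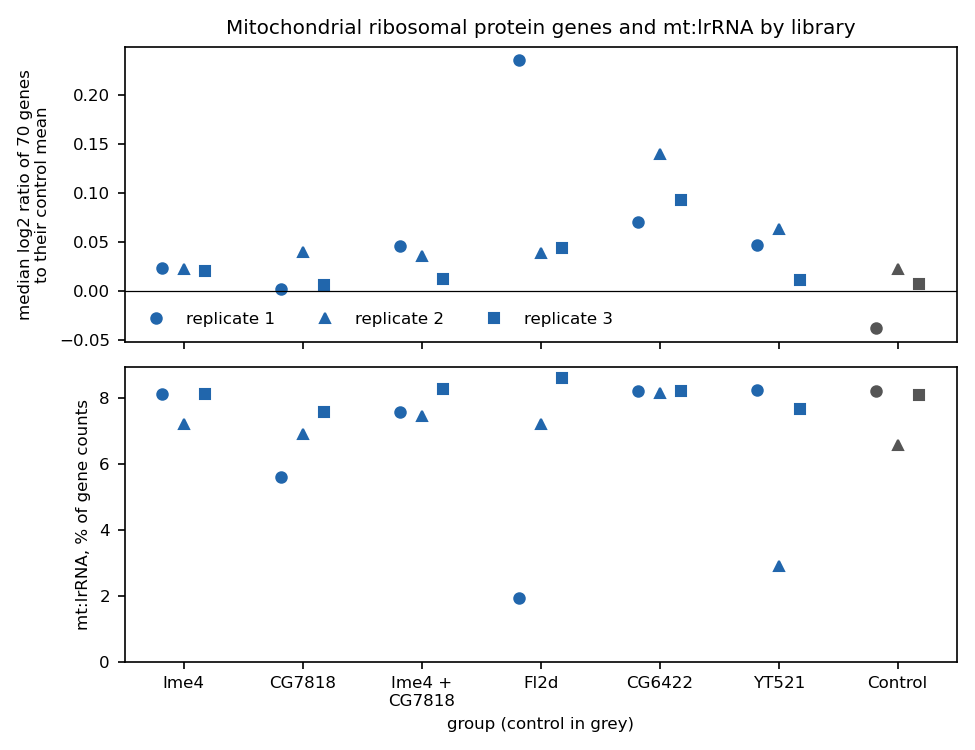
Median log2 ratio of the 70 tested genes to their mean in control cells (upper panel) and share of mt:lrRNA in all gene counts (lower panel, percent) for each of the 21 libraries, by group, with the control in grey on the right. Fl2d replicate 1 is the highest point above (0.24) and the lowest below (1.94%). All CG6422 and all Fl2d libraries lie above all control libraries in the upper panel, Fl2d replicates 2 and 3 at 0.04 against a control maximum of 0.02.

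In depletion of CG6422, the cytoplasmic reader, 12 of 70 members rose and 1 fell, against 8.89% of all genes called higher and 10.2% called lower (19.1% either way). The median log2 fold change was 0.10, against 0.010 over all genes tested, and 62 of 70 lay above 0, against 52.2% of all genes. Libraries clear of the control were found for 30 members, against 37.2% of all genes. The member medians of the 3 CG6422 libraries were 0.07, 0.14 and 0.09, above the -0.04, 0.02 and 0.01 of the control libraries. The summed level was 2997, 3175 and 3030 CPM in CG6422 depletion, against 2787, 2920 and 2892 CPM in control cells, so that the groups did not overlap. The mt:lrRNA share of the CG6422 libraries, 8.15% to 8.22%, lay within that of the control libraries, 6.58% to 8.23%.

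Among the members that rose, mRpL30 had 53.7, 61.6 and 54.3 CPM in CG6422 depletion, against 44.7, 45.7 and 48.0 CPM in control cells (log2 fold change 0.29, SE 0.060, edgeR adjusted p = 0.00214). The gene mRpL23 had 80.0, 80.3 and 72.4 CPM, against 66.3, 61.2 and 63.5 CPM in control cells (log2 fold change 0.29, SE 0.062, edgeR adjusted p = 0.00353). In both the groups did not overlap, and both calls held under every alternative tried. With its calls in the double, Fl2d and CG6422 depletions, mRpL23 was the only member called in 3 of the 6 depletions, while 5 members were called in 2, 21 in 1 and 43 in none. The counting does not state its strand setting, and 55 exon bases of mRpL30 overlap Torsin on the opposite strand, which also rose (141 CPM in CG6422 depletion and 125 CPM in control cells, edgeR adjusted p = 0.00645).

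The other named members that rose in CG6422 depletion were near the threshold. The gene mRpL14 had 95.7, 97.1 and 94.0 CPM, against 82.8, 84.3 and 81.1 CPM in control cells (log2 fold change 0.21, SE 0.058, edgeR adjusted p = 0.0153), and mRpS21, the counterpart of bacterial S21, had 33.4, 33.6 and 32.3 CPM, against 28.2, 28.3 and 27.2 CPM in control cells (log2 fold change 0.25, SE 0.070, edgeR adjusted p = 0.0176). In mRpS21, 48.0% of exon bases overlap CG8870 on the opposite strand, which averaged 0.442 CPM in CG6422 depletion and 0.411 CPM in control cells. The libraries of mRpL14 and of mRpS21 were close to each other within a group and did not overlap between groups. The gene mRpL4, related to a protein of the tunnel wall in bacteria, had 36.8, 41.5 and 38.1 CPM, against 33.6, 33.1 and 34.2 CPM in control cells (log2 fold change 0.21, edgeR adjusted p = 0.0152), and mRpS18A had 36.9, 35.4 and 34.9 CPM, against 30.6, 31.2 and 30.3 CPM in control cells (log2 fold change 0.22, edgeR adjusted p = 0.0191). Each of these 4 calls was lost without at least 1 library, with adjusted p up to 0.107 for mRpL4. The remaining 6, mRpL10, mRpL27, mRpL47, mRpL55, mRpS17 and mRpS18C, rose by 0.17 to 0.25. The count of called members was 4 without CG6422 replicate 2 (4.29% of the members and 4.22% of all genes higher, 1.43% and 5.78% lower) and 7 without each control library in turn, while the median log2 fold change was 0.08 to 0.12 with any 1 library left out.

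The one member that fell was mRpL51 (FBgn0032053, 2L:8516753-8517380, minus strand), a gene without introns for a large-subunit protein added in mitochondria. It had 23.4, 24.7 and 21.8 CPM in CG6422 depletion, against 35.1, 36.4 and 36.5 CPM in control cells. The groups lay far apart, with a log2 fold change of -0.62 (SE 0.077, edgeR adjusted p = 3.77e-05), and the call held under every alternative tried (adjusted p 2.18e-11 to 5.20e-04). In the other depletions mRpL51 was not called, and its 15 libraries there ranged over 31.9 to 43.1 CPM. Its level in CG6422 depletion was lower than in each of them by a direct test. The log2 fold change was -0.62 against Ime4 (edgeR adjusted p = 7.01e-05), -0.50 against CG7818 (1.60e-04), -0.51 against the double (4.30e-04) and -0.65 against Fl2d depletion (1.62e-06). In YT521 against CG6422 depletion it was 0.60 (edgeR adjusted p = 1.50e-05). The gene that abuts mRpL51, PIG-U, shares 3 exon bases with it on the opposite strand and was not called, at 41.1, 40.8 and 37.0 CPM in CG6422 depletion and 42.4, 45.3 and 44.1 CPM in control cells (log2 fold change -0.15, edgeR adjusted p = 0.185).

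In YT521 depletion, which lowers the transcript of the nuclear reader, 1 of 70 members rose and 0 fell, against 3.27% of all genes called higher and 3.25% lower (6.52% either way). The member was mRpL33 (FBgn0040907, X:4321764-4322231, minus strand), the counterpart of a small bacterial large-subunit protein. It had 13.9, 15.4 and 13.7 CPM in YT521 depletion, against 9.56, 10.01 and 11.4 CPM in control cells. The groups did not overlap (log2 fold change 0.48, SE 0.14, edgeR adjusted p = 0.0395), but the call was lost without each of the 6 libraries in turn (adjusted p up to 0.142). In CG6422 depletion it had 13.9, 11.3 and 13.8 CPM (log2 fold change 0.33, edgeR adjusted p = 0.107), and in Fl2d depletion 7.60, 12.2 and 7.09 CPM (log2 fold change -0.20, edgeR adjusted p = 0.304). The difference between Fl2d and YT521 depletion was called, at -0.68 (SE 0.14, edgeR adjusted p = 7.57e-04), and held under every alternative tried. Against the Ime4, CG7818 and double depletions YT521 depletion gave 0.41, 0.41 and 0.32, with edgeR adjusted p of 0.0785, 0.0521 and 0.141. The median log2 fold change over all members in YT521 depletion was 0.04, 44 of 70 lay above 0, against 51.5% of all genes, and 16 had libraries clear of the control, against 27% of all genes.

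**Figure D4:**
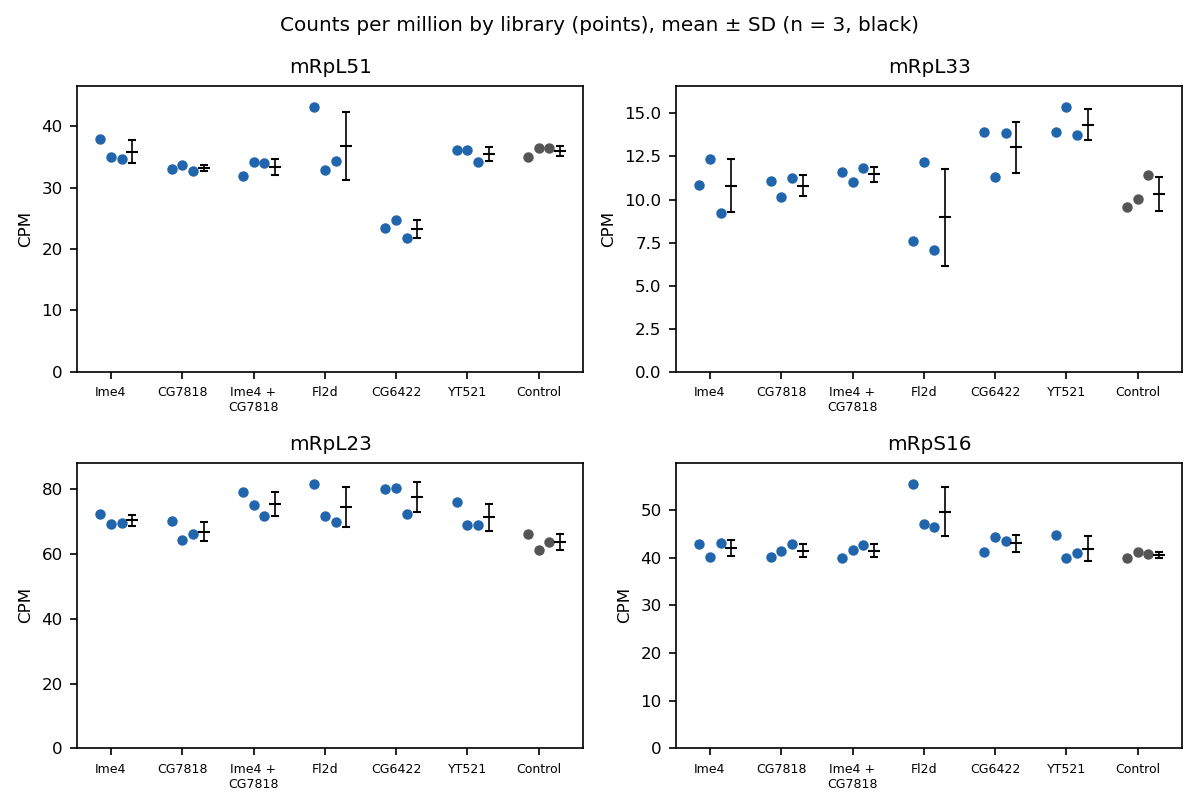
Level in counts-per-million of 4 genes (panels; vertical axes start at 0) in each library (points) with the group mean and SD (black, n = 3), for 6 depletions and, in grey on the right, control cells. In CG6422 depletion mRpL51 sits at 21.8 to 24.7 CPM, below all other libraries, mRpL33 has its highest mean in YT521 depletion at 14.3 CPM, and mRpS16 is highest in Fl2d depletion.

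Direct comparisons between depletions showed where members differed. In Fl2d against double depletion 9 of 70 members were higher and 2 lower, against 18.6% and 18.3% of all genes. The largest called differences were in mRpL16 (0.30), mRpL2 (0.29) and mRpL44 (0.29), of the large subunit. Without Fl2d replicate 1 these 3 differences were 0.14, 0.16 and 0.15 and none of them was called. Only mRpS16 (0.26, edgeR adjusted p = 0.00287, 0.17 without Fl2d replicate 1) held its call under every alternative tried, and the count was 4 without the pair of libraries low in mt:lrRNA, 3 without Fl2d replicate 1 and 5 without replicate 3 of the double depletion. The gene mRpS30 was lower, at 124, 114.9 and 128 CPM in Fl2d depletion and 132, 131 and 134 CPM in the double depletion (-0.11, edgeR adjusted p = 0.0404). Of the 6 libraries all but Fl2d replicate 3 were needed for this call, and the difference was -0.07 without Fl2d replicate 2.

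In Fl2d against YT521 depletion 11 members were higher and 1 lower, against 20.2% and 18.9% of all genes, with mRpS22 (0.23, edgeR adjusted p = 0.00307) and mRpL33 holding their calls under every alternative tried, and 6 members called without YT521 replicate 1. Without Fl2d replicate 1, of these only mRpS16, mRpS22, mRpL33 and mRpL37 kept their calls. The calls of mRpL2, mRpL16, mRpL21, mRpL42, mRpL44, mRpS10, mRpS26 and mRpS29 were lost. The difference in mRpL16, for example, was 0.26 with that library and 0.10 without it. The reader depletions differed in 3 members. In YT521 against CG6422 depletion 1 was higher and 2 lower, against 6.67% and 6.21% of all genes. Of these mRpL51 was higher, and mRpL30 (-0.27, edgeR adjusted p = 0.00406) and mRpL39 (-0.20, edgeR adjusted p = 0.0260) were lower.

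A further 4 comparisons were added after the data were seen. In CG6422 against Ime4 depletion 2 of 70 members were called (3.17% of all genes), mRpL51 lower and mRpS24 higher. Against the double depletion the same 2 were called (6.64% of all genes). In both the call of mRpS24 was lost without CG6422 replicate 2, among other libraries. Against CG7818 depletion 11 were higher and 3 lower, against 9.65% and 12% of all genes, with mRpL47 and mRpL14 higher and mRpL51 lower under every alternative tried, and 5 members were called without CG6422 replicate 2 and 7 without CG7818 replicate 3. Against Fl2d depletion 5 were higher and 6 lower, against 17.9% and 19% of all genes. The gene mRpS24 had 26.4, 29.6 and 27.1 CPM in CG6422 depletion, above the 23.8, 21.7 and 19.3 CPM in Fl2d depletion (0.36, edgeR adjusted p = 9.16e-04), and 55.3% of its exon bases overlap TBC1d7 on the opposite strand. TBC1d7 itself was not called against control in CG6422 or Fl2d depletion.

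**Figure D5:**
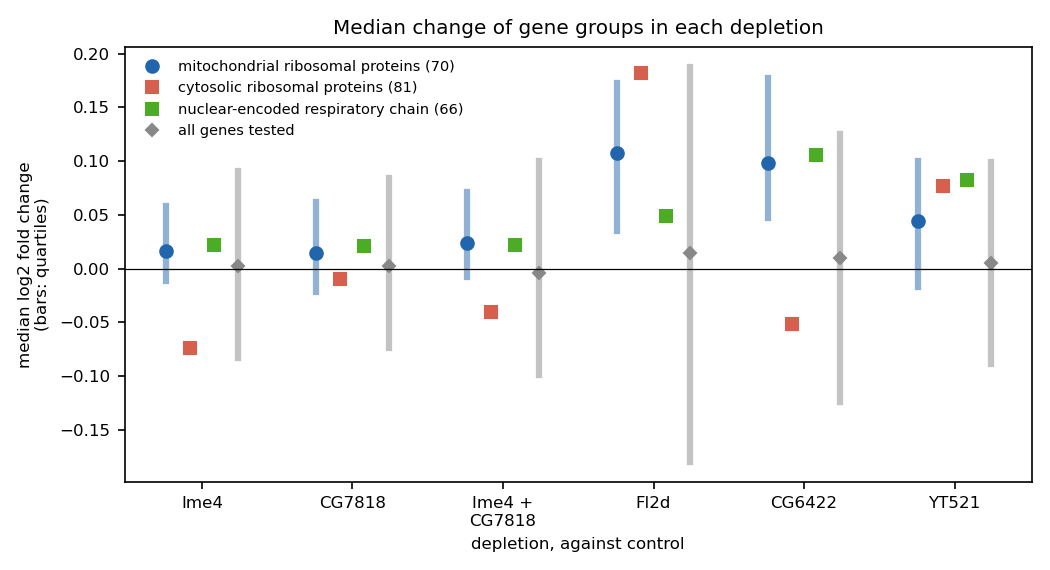
Median log2 fold change against control (vertical axis) in 6 depletions (horizontal axis) of the mitochondrial ribosomal protein genes (blue circles), cytosolic ribosomal protein genes (red), nuclear-encoded respiratory chain genes (green) and all genes tested (grey), with quartiles as bars for the first and last. In Fl2d depletion the blue and red medians are 0.11 and 0.18, and in CG6422 depletion they are 0.10 and -0.05.

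The other parts of the mitochondrial ribosome and its surroundings were read from lists of related genes. Some symbols tried for these lists matched no gene here, so the lists are not complete. Each count stands beside 8.89% of all genes higher and 10.2% lower in CG6422 depletion, and 21.4% and 19.8% in Fl2d depletion. In Fl2d depletion without replicate 1 the shares of all genes were 17.2% and 15.9%. In CG6422 depletion without replicate 2 they were 4.22% and 5.78%. The small-subunit genes bonsai (ribosomal protein S15) and tko (S12) carry older names. In Fl2d depletion bonsai fell (25.2 ± 3.0 CPM against 28.7 ± 1.1 CPM in control cells, log2 fold change -0.19, edgeR adjusted p = 0.0324), with overlapping groups and an adjusted p of 0.108 without replicate 1, and tko was not called in any depletion. The ribosomal RNAs mt:lrRNA and mt:srRNA were not called either, in poly(A)-selected libraries and with standard errors of 0.37 and 0.62 in Fl2d depletion.

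Of 81 tested genes with symbols of cytosolic ribosomal proteins, which serve the translation of nuclear messages, 2 rose and 7 fell in CG6422 depletion, with a median log2 fold change of -0.05. Beside the 8.89% and 10.2% of all genes these are 2.47% and 8.64% of the list. Without CG6422 replicate 2 it was 2 and 5 (2.47% and 6.17%, against 4.22% and 5.78%), with a median of -0.10. In Fl2d depletion 31 rose and 0 fell (38.3% of the list, against 21.4% of all genes higher), with a median of 0.18, while without Fl2d replicate 1 it was 7 and 0 (8.64%, against 17.2%), with a median of 0.09. No test of the difference between the lists was made. The cytosolic list was taken by symbol and includes RpLP0-like and RpL24-like, whose place in the ribosome the symbols do not show. Of these, RpLP0-like was called higher in Fl2d depletion with and without replicate 1. Of 66 tested nuclear genes of the respiratory chain, 10 rose and 0 fell in CG6422 depletion (15.2% of the list higher, against 8.89% of all genes, median 0.11), among them ND-15 (180 ± 8.1 CPM against 154 ± 3.0 CPM in control cells) and ND-ACP (372 ± 20 CPM against 317 ± 8.9 CPM), both of complex I. Without CG6422 replicate 2 it was 5 and 0 (7.58% higher, against 4.22%), with a median of 0.08. In Fl2d depletion 5 rose and 3 fell (7.58% and 4.55%, against 21.4% and 19.8% of all genes; median 0.05). Without Fl2d replicate 1 it was 1 and 8 (1.52% and 12.1%, against 17.2% and 15.9%), and the median was -0.05. With all libraries, those that fell included the cytochrome oxidase subunit COX6B (log2 fold change -0.26, edgeR adjusted p = 0.00125) and the ATP synthase subunit ATPsynbeta (-0.18, edgeR adjusted p = 0.00204), both also called without replicate 1.

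Of 13 tested genes of mitochondrial protein import, on which the delivery of ribosomal proteins depends, 6 rose and 0 fell in CG6422 depletion (46.2% of the list higher, against 8.89% of all genes). Without CG6422 replicate 2 it was 5 and 0 (38.5%, against 4.22%). The symbols Tim23, Tim44, Tim50, Ttm50, Tom5 and Hsp10 matched no gene here, so these shares do not cover all import genes. Tom7, a small subunit of the outer membrane translocase, averaged 183 ± 3.9 CPM in CG6422 depletion and 143 ± 9.8 CPM in control cells (log2 fold change 0.36, edgeR adjusted p = 7.05e-04). The small chaperone Tim8 averaged 56.3 ± 3.6 CPM and 45.4 ± 1.2 CPM in control cells (log2 fold change 0.31, edgeR adjusted p = 0.00540). Tom7 also rose in YT521 (0.33), double (0.26) and Fl2d depletion (0.20, edgeR adjusted p = 0.0717 without Fl2d replicate 1). In Fl2d depletion 5 of the 13 import genes rose and 0 fell (38.5%, against 21.4% of all genes higher), and without replicate 1 it was 2 and 0 (15.4%, against 17.2%). The chaperonin gene Hsp60A was among them, at 746, 582 and 574 CPM in Fl2d depletion, against 461, 526 and 513 CPM in control cells. Replicate 1 stood highest, and the log2 fold change was 0.34 with it and 0.21 without it.

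Of 8 mitochondrial translation factors, which act on the mitochondrial ribosome, 4 rose and 1 fell in Fl2d depletion (50% and 12.5%, against 21.4% and 19.8% of all genes), and without replicate 1 it was 2 and 1. The elongation factor genes mEFG1 (24.1 ± 2.6 CPM against 17.5 ± 1.4 CPM in control cells, log2 fold change 0.46) and mEFTu1 (383 ± 48 CPM against 291 ± 22 CPM, log2 fold change 0.39) rose, and the initiation factor gene mIF3 fell (13.3 ± 1.6 CPM against 16.8 ± 0.85 CPM, log2 fold change -0.34), and these 3 calls held without replicate 1. In CG6422 depletion 1 of the 8 rose (12.5%, against 8.89% of all genes), the elongation factor gene mEFTs (0.25, edgeR adjusted p = 0.00349). Of 15 mitochondrial aminoacyl-tRNA synthetase genes, 5 rose in Fl2d depletion, with and without replicate 1 (33.3%, against 21.4% and 17.2% of all genes), and 2 in CG6422 depletion (13.3%, against 8.89%). Without CG6422 replicate 2 only 1 of them was called in CG6422 depletion (6.67%, against 4.22%). Of 15 tested genes of mitochondrial transcription and RNA processing, 5 rose in Fl2d depletion (33.3%, against 21.4% of all genes) and 3 without replicate 1 (20%, against 17.2%), among them PolrMT, the mitochondrial RNA polymerase (19.6 ± 0.75 CPM against 16.2 ± 1.2 CPM in control cells). Of 8 regulators of mitochondrial biogenesis, srl, the fly relative of PGC-1, rose in Fl2d depletion (70.3 ± 0.91 CPM against 56.4 ± 3.1 CPM in control cells) with Ets97D, and ewg fell (25% and 12.5% of the list, against 21.4% and 19.8% of all genes). Without replicate 1 srl and Ets97D were called and ewg was not (adjusted p = 0.151). Of the same 8, in CG6422 depletion Dref fell (73.7 ± 3.4 CPM against 81.1 ± 3.3 CPM in control cells, log2 fold change -0.14, edgeR adjusted p = 0.0482). That call was lost without CG6422 replicate 2 (log2 fold change -0.10, edgeR adjusted p = 0.2245).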

How the data were processed

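The deposited tables hold raw read counts per gene, 1 table per library. The submitters' processing notes list HTSeq 0.6.1, DESeq2 1.6.3, STAR 2.4.0h and CASAVA 1.8.4, and BDGP6 as the build. The strand setting and annotation release remain not given in the sources used here. Relative to gene counts, the summary lines for reads at several places held 12.8% to 23.7%, for ambiguous reads 0.891% to 1.03% and for reads outside genes 1.70% to 2.38%, and they stayed out of all totals. Symbols, exons and coordinates came from Ensembl release 115 (BDGP6.54).

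Groups were taken from sample titles. For the double depletion the genotype label names only Ime4, while the title names both genes, and the title was followed. edgeR 4.0.16 (R 4.3.3) fitted all 21 libraries with 1 mean per group, TMM scaling and filterByExpr with a minimum count of 10. A quasi-likelihood test and Benjamini-Hochberg adjustment over 8360 genes followed. The fit was also run on simulated counts, in which few genes changed and no library stood apart. That run does not show how calls behave in a comparison like Fl2d against control. The common biological coefficient of variation was 6.37%. CPM values refer to TMM-scaled libraries, and TPM uses merged exon length. Replicates differed by more than sampling noise (chi-square per degree of freedom 4.45 to 225). Reads carry no molecular identifiers.

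The named genes are the called members with the smallest p and no overlap between groups, up to 6 per direction and comparison, members called in 3 or more depletions, the 5 highest and 5 lowest per length, and up to 3 called genes per list and comparison, of which the text gives part. The other called members, mRpS24, and neighbouring genes were named after their values were seen. Members and lists were chosen with earlier results of these data known. Comparisons of CG6422 with the Ime4, CG7818, double and Fl2d depletions, and of YT521 with the Ime4, CG7818 and double depletions, were added after seeing the data. Alternatives were DESeq2 1.42.0 size factors and Wald test, TMM on nuclear genes, no filter, 2 groups only, a replicate block, each library left out and, added later, both libraries low in mt:lrRNA left out.

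Same-numbered libraries deviated together, with every correlation over 0.1, only in the double depletion against CG7818 depletion (0.192, 0.109 and 0.156). For that comparison the result with the replicate block is given beside the main one. The block was the replicate number, common to all 21 libraries, so that fit did not pair these groups alone. The labels do not say what a number marks.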

Additional observations from a re-analysis of the deposited data

How the results depend on the processing

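No named result reversed. Over 41 named gene results and 521 alternative values, 429 kept their side of the threshold, 84 lost it and 8 gained it, and 16 results lost no call. The 41 include mRpL33 in YT521 against the Ime4, CG7818 and double depletions, which was not called and so had no call to lose. The counts of called members in Fl2d against control were 11 without the low-count filter, 4 with only the 2 groups in the fit and 6 without the pair of libraries low in mt:lrRNA, where the median log2 fold change of the members was 0.022. Without these libraries the counts were 4 for Fl2d against double, 7 for Fl2d against YT521, 6 for YT521 against CG6422 and 17 for CG6422 against Fl2d depletion. With only the 2 groups in the fit they were 2 for YT521 against control, 1 for Fl2d against double, 2 for Fl2d against YT521, 3 for CG6422 against Fl2d and 5 for CG6422 against double depletion. Without the filter CG6422 against CG7818 depletion gave 9. The cause was not tested. With the replicate block the counts were 2 for YT521 against control, 1 for double against CG7818 and 5 for YT521 against CG6422 depletion, and the block changed none of the 41 named gene results. The member called with it in double against CG7818 depletion was mRpL23. Outside the pair of groups named in the methods, not every correlation of same-numbered libraries was over 0.1 (range -0.235 to 0.278). All were above 0 in some comparisons, such as YT521 against CG7818 (0.0816, 0.158 and 0.278) and against CG6422 depletion (0.111, 0.233 and 0.0969). The cut of 0.1 therefore does not show that the numbers mark no pairs there. Leaving out 1 library at a time, the counts ranged over 0 to 0 in Ime4, 0 to 0 in CG7818, 0 to 2 in double, 7 to 20 in Fl2d, 4 to 11 in CG6422 and 0 to 0 in YT521 depletion, each against control. They ranged over 3 to 15 for Fl2d against double, 6 to 14 for Fl2d against YT521, 2 to 4 for YT521 against CG6422, 8 to 13 for CG6422 against Fl2d, 1 to 2 for CG6422 against Ime4, 5 to 10 for CG6422 against CG7818 and 1 to 2 for CG6422 against double depletion. The medians ranged over 0.031 to 0.14 in Fl2d, 0.08 to 0.12 in CG6422 and 0.03 to 0.08 in YT521 depletion. With the longest transcript as length, the median level in control cells was 66.6 TPM.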
